A study of Mus musculus with 64 samples.

Results

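The 4 cell populations of the infarcted adult mouse heart were each compared with the other 3, gene by gene, to see which population carried each transcript of the injured state. They are 16 of the 64 libraries in the series, chosen as the 16 columns that the deposited table labels as infarcted and operated on at postnatal day 56 (P56), with 4 libraries in each population. The hearts came from male CD1 mice whose left coronary artery was tied off permanently, and cells were taken 3 days after surgery. Sham controls went through the same operation without the infarct (16 libraries), and 16 more libraries came from hearts infarcted at postnatal day 1 (P1). All the mice are of the CD1 strain and no transgene or Cre is named in the labels.

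Adult hearts were digested by perfusion with enzyme, the atria were removed, and the cells were layered on a density gradient. Cardiomyocytes (Myo) are the dense layer, which was lysed without sorting. Cells of the lighter layer were sorted by antibodies: CD45+ cells as leukocytes, CD31+ CD45- cells as endothelial cells, and CD90+ cells without CD45 or CD31 as fibroblasts (Fibro). CD90 is carried by many cardiac fibroblasts, CD45 by all white blood cells, and CD31 by the cells that line vessels. Whether the replicates of a group are different animals or pools is not given in the labels, so the p-values speak only for the spread among these samples, part of which may be technical. Each sample is a bulk population, in which fewer cells of a type and less RNA per cell cannot be told apart.

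As background, the days after a coronary artery is blocked are those in which dead heart muscle is cleared. Neutrophils and monocytes enter from the blood and become macrophages that take up debris, and they release cytokines and chemokines that act on the other cells. Fibroblasts divide, turn on contractile genes as myofibroblasts and lay down collagen and matricellular proteins, which are matrix proteins that act as signals rather than as scaffold. Surviving cardiomyocytes turn on fetal genes such as the natriuretic peptides, and endothelial cells meet leukocytes at the vessel wall and start new vessels.

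Each population carried its own markers. All 14 cardiomyocyte markers, all 13 fibroblast markers, all 12 general leukocyte markers and all 14 endothelial markers were enriched in the population labelled with that cell type, and none was at 0 in all 4 libraries of any population. The lists include the genes of the sorting antigens, Thy1 (CD90), Ptprc (CD45) and Pecam1 (CD31), whose enrichment is no separate support. The marker levels also showed what the populations shared. Cardiomyocyte markers summed to 166874 to 207747 CPM in the cardiomyocyte fraction, 5825 to 20425 in leukocytes, 4243 to 9352 in endothelial cells and 599 to 1505 in fibroblasts. The leukocyte markers summed to 4734 to 6255 CPM in leukocytes, 113 to 359 in the cardiomyocyte fraction, 78.7 to 183 in endothelial cells and 27.4 to 40.5 in fibroblasts. Fibroblast markers were at 60668 to 80682 CPM in fibroblasts, 2772 to 7824 in leukocytes and 1853 to 3655 in the cardiomyocyte fraction. CPM here is reads scaled to a library size that the authors had adjusted.

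Depth was 9587688 to 27457176 reads a library, at which 3 reads are worth 0.108 to 0.260 CPM; this floor covers counting error only. Some libraries stood apart. The libraries numbered 2 were low for several injury transcripts: Timp1 in fibroblasts was 733, 264, 612 and 792 CPM in replicates 1 to 4, and Spp1 in leukocytes was 4685, 2561, 5664 and 6000.5 CPM. Cardiomyocyte replicate 3 held 694 CPM of the leukocyte transcript Spp1 against 53.0 to 111 in the other 3, and 12.1% of its reads were mitochondrial ribosomal RNA against 20.3 to 27.3%. Leukocyte replicate 1 and endothelial replicate 1 held 7.07% and 4.56% of reads from 18S ribosomal RNA, where the other 14 libraries held at most 0.359%.

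A gene was called enriched in a population where it passed every other population by 2-fold or more, at an adjusted p under 0.05 in all 3 comparisons (limma on log2(CPM + 0.5), Benjamini-Hochberg adjustment over the 16588 genes with at least 1 CPM in at least 4 of the 16 libraries). By this rule 6464 genes, 39.0% of those tested, were enriched in 1 population: 3082 in the cardiomyocyte fraction (18.6%), 1234 in leukocytes (7.44%), 1118 in fibroblasts (6.74%) and 1030 in endothelial cells (6.21%). The other 10124 genes were enriched in none. Nearly every call was set by the fold and not by the p, since the fold alone was passed by 3086, 1239, 1123 and 1035 genes in that order. The libraries of the carrying population did not overlap those of any other in 2999, 1204, 1067 and 998 of the enriched genes. The rule itself asks for a separation from every other population, so these counts are no separate support for the calls.

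The 4 sets differed in how sharply they were separated. The median lowest difference of an enriched gene was 2.03 on the log2 scale in the cardiomyocyte fraction, 2.33 in leukocytes, 2.00 in fibroblasts and 1.81 in endothelial cells, and 346, 265, 65 and 21 genes were at least 16-fold above every other population. Enriched genes took 74.1% of the cardiomyocyte fraction's reads, 27.3% of the fibroblasts', 19.2% of the leukocytes' and 16.5% of the endothelial cells'. In the cardiomyocyte fraction these included 20 genes of the mitochondrial genome. The size of the cardiomyocyte set depended on the scaling. In the deposited scaling the median tested gene lay at -0.32 (log2) relative to the mean of the other 3 populations in the cardiomyocyte fraction. With reads scaled to each library's own total (plain RPM) it lay at -1.23, and the set held 1418 genes in place of 3082. The medians in fibroblasts, leukocytes and endothelial cells moved from -0.02, -0.10 and -0.09 to 0.26, 0.22 and 0.31.

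**Figure D1:**
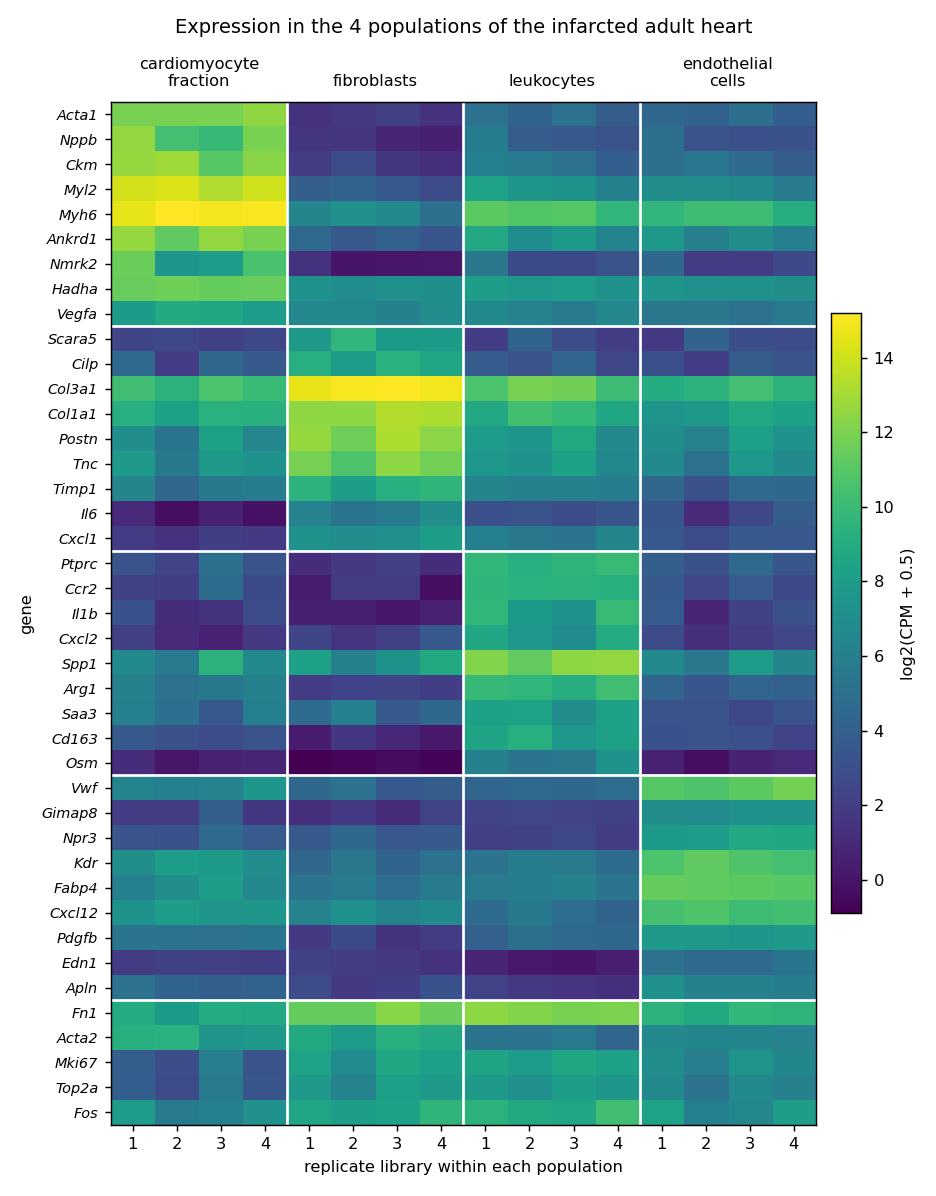
Expression of 41 named genes, log2(CPM + 0.5), as colour in each of the 16 libraries of the infarcted adult heart, with 4 replicate columns per population and white lines between populations and between gene blocks. Each of the first 4 blocks is brightest in 1 population, while Fn1, Acta2, Mki67, Top2a and Fos in the last block are bright in more than 1.

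For the 1 injury transcript in each population that the results below return to most (Nppb, Postn, Spp1 and Edn1, chosen after their values were seen), the 250 bases before the start site are shown, since these windows hold short letter matches that differ between the 4. They are from RefSeq (GRCm38.p6) and all on the forward strand, at chr4:147985650-147985899, chr3:54360857-54361106, chr5:104434861-104435110 and chr13:42301226-42301475. Capitals mark the motif matches. 
Nppb: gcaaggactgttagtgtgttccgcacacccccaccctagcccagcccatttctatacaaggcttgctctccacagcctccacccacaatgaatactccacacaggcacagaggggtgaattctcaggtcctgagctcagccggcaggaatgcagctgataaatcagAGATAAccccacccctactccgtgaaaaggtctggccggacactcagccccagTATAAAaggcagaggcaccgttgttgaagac
Postn: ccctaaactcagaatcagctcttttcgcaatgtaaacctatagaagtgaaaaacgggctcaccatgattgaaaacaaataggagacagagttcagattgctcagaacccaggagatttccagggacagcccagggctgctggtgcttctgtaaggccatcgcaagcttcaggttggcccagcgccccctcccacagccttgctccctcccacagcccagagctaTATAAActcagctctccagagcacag
Spp1: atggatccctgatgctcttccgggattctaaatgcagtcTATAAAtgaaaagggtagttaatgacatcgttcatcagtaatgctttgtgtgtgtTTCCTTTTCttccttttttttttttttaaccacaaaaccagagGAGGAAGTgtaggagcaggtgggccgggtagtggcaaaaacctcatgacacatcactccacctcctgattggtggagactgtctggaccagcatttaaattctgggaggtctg
Edn1: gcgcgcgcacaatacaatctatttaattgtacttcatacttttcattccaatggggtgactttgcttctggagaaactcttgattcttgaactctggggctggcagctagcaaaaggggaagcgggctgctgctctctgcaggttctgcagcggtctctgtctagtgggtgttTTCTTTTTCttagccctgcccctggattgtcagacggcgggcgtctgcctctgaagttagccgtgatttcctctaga

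These were matches to 10 motifs searched by letters on both strands: MEF2 (TATTTNTAG), PU.1 (GAGGAAGT), ETS (CCGGAAGT), AP-1 (TGANTCA), NF-kB (GGGNNTTTC), IRF (GAAANNGAA), GATA factors (AGATAA), SRF (CCATATTAG), TEAD (ACATTCC) and the TATA box (TATAAA). The Nppb window held a GATA match 84 bases before the start and a TATA match 31 before it, the Postn window a TATA match 26 before it, and the Edn1 window an IRF match (TTCTTTTTC, on the reverse strand) 77 before it. The Spp1 window held a TATA match at 211, an IRF match (TTCCTTTTC, on the reverse strand) at 156 and a PU.1 match at 113 bases before the start. The RefSeq table holds 32851 promoter windows of 300 bases. Each was searched over the 250 bases before the start site only, as were the windows shown. Of the 32851, 12.4% hold the TATA letters, 9.99% GATA, 7.13% IRF, 6.75% AP-1, 3.72% NF-kB, 3.25% TEAD, 2.88% ETS, 2.44% PU.1, 1.41% MEF2 and 0.0974% SRF. A match is a description of the letters and not a binding site. The Nppb and Edn1 windows end after the start of the deposited gene model, as RefSeq's transcripts start further in.

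The cardiomyocyte fraction carried the contractile apparatus, fatty acid oxidation and the stress genes of heart muscle. Of 23 tested fetal and stress genes of heart muscle, 18 were enriched there, 2 in leukocytes (Hmox1, Atf3), 1 in endothelial cells (Trib3) and 2 in none. Their median difference from the mean of the other 3 populations was 4.25 on the log2 scale, where it was -0.32 over all tested genes. Of 20 genes of fatty acid uptake and oxidation 15 were enriched in the cardiomyocyte fraction, with a median of 4.25, and 3 that bind or import lipid in capillaries (Cd36, Fabp4 and Gpihbp1) in endothelial cells.

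Nppb (ENSMUSG00000029019, chr4:147985788-147987205 in GRCm38), which encodes the natriuretic peptide BNP, stood at 6085, 1352, 950.2 and 3886 CPM in replicates 1 to 4 of the cardiomyocyte fraction, against 8.77 to 60.4 in leukocytes, 7.75 to 32.1 in endothelial cells and 0.946 to 2.59 in fibroblasts. Replicates 1 and 4 were the high ones, and the lowest cardiomyocyte library was still above every other library. The smallest of its 3 differences, against leukocytes, was 7.06 ± 0.62 on the log2 scale (SE; limma, adjusted p = 1.2e-08). In sham hearts the cardiomyocyte fraction held 221 to 1111 CPM of Nppb, so that replicate 3 of the infarcted hearts overlapped the sham range, and the rise was 2.07 ± 0.54 (adjusted p = 0.0087).

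Nmrk2, a nicotinamide riboside kinase that feeds the synthesis of NAD, was more uneven. Its values were 3095, 184, 257 and 1519.7 CPM in the cardiomyocyte fraction, all above the sham range of 32.4 to 55.9, with replicates 1 and 4 again the highest. The other 3 populations held at most 45.1 CPM, and the smallest difference was 5.90 ± 0.83 (adjusted p = 4.4e-06). Sprr1a, a small proline-rich protein of stressed cells, was at 35.6, 0.887, 68.4 and 7.64 CPM against at most 0.124 in sham. Acta1, the skeletal form of actin that the fetal heart also uses, was at 3745, 3885, 4046 and 5836 CPM and 7.46 ± 0.29 above the next population, and its sham libraries spanned 2172 to 9385. Acta1 was thus carried by cardiomyocytes without a difference from sham that passed the test (adjusted p = 0.9). Ankrd1, a nuclear and sarcomeric stress protein, stood at 6366, 2469, 6027 and 3893 CPM against 1313 to 3037 in sham.

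Metabolic genes were carried here too. Hadha, a subunit of the mitochondrial trifunctional enzyme of fatty acid oxidation, was at 2788, 3181, 2647 and 2840.1 CPM in the cardiomyocyte fraction, 3.73 ± 0.17 above leukocytes (adjusted p = 9.2e-12). Among 24 genes of glycolysis and lactate handling, 17 were enriched in the cardiomyocyte fraction, 3 in leukocytes (Hk3, Pfkfb3 and Aldoc) and 4 in none, with a median of 2.52. The glycolysis count rested on the scaling, with 10 of 24 in the cardiomyocyte fraction and 6 in leukocytes under plain RPM and 13 and 3 under quantile normalization. Slc2a1, the glucose transporter GLUT1, was enriched in none and was at 42.0 to 107 CPM in the cardiomyocyte fraction and 44.4 to 116 in leukocytes. Among 17 hypoxia genes 8 were enriched in the cardiomyocyte fraction, 3 under plain RPM and 6 under quantile normalization. Vegfa, the main growth factor for vessels, was one of the 8 in the deposited scaling, at 236, 476, 431 and 246 CPM (1.79 ± 0.25 above fibroblasts).

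A few secreted or immune-associated transcripts were also carried here. Lcn2, the iron-binding lipocalin known from neutrophils, was at 453, 258, 44.1 and 375 CPM in the cardiomyocyte fraction, 4.19 to 33.5 in fibroblasts and 2.70 to 23.4 in leukocytes. Replicate 3 was the low one, and all 4 were above the sham range of 4.91 to 17.5; the lowest difference was 3.68 ± 0.74 (adjusted p = 0.00021). Of the 12 neutrophil markers listed 8 were tested, 7 of them were enriched in leukocytes and Lcn2 was the exception, and 2 of the 12 were at 0 in every cardiomyocyte library. Hbegf, a growth factor of the EGF family, was at 161, 67.9, 125 and 168 CPM against 6.99 to 17.1 in fibroblasts, and Tnfrsf12a, the receptor for the cytokine TWEAK, at 593, 184, 199.7 and 399 against 26.2 to 72.4.

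Fibroblasts carried the collagen and matrix programme. Of 19 collagen genes, 16 were enriched in fibroblasts, Col18a1 in endothelial cells and the basement membrane pair Col4a1 and Col4a2 in none. Of 28 genes of matricellular and other matrix proteins 17 were enriched in fibroblasts, Spp1 and Tgfbi in leukocytes and 9 in none, and of 16 genes of collagen processing and crosslinking 12 were enriched in fibroblasts and 4 in none. The medians of these lists against the mean of the other populations were 4.24, 3.49 and 2.92, where the median tested gene was at -0.02.

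Postn (ENSMUSG00000027750, chr3:54361109-54391037), the matricellular protein periostin of activated fibroblasts, was at 6259, 3176, 9475 and 5385 CPM in fibroblasts, with replicate 2 lowest and replicate 3 highest. It was 104 to 469 in leukocytes, 40.1 to 303 in the cardiomyocyte fraction and 76.4 to 297 in endothelial cells, with no overlap, and the lowest difference was 4.70 ± 0.55 against leukocytes (adjusted p = 8.6e-07). Sham fibroblasts held 388 to 1037 CPM. Col3a1, the fibrillar collagen of early scar, was at 25746, 33486, 37255 and 30174 CPM in fibroblasts and 8796 to 13598 in sham, and its 4 infarcted libraries lay closer together than those of Postn. Tnc, tenascin-C, was at 3833, 1642, 5567 and 3541 CPM against 14.7 to 57.6 in sham, a rise of 6.87 ± 0.49 (adjusted p = 1e-11).

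Cthrc1, a secreted protein of collagen-producing fibroblasts, was close to absent in sham fibroblasts (0.0428 to 0.518 CPM) and stood at 87.8, 66.7, 204 and 129 CPM after infarction. Timp1, the inhibitor of metalloproteinases, went from 8.61 to 20.0 CPM in sham to 733, 264, 612 and 792, and 14 of 34 genes for matrix proteases and their inhibitors were enriched in fibroblasts, 10 in leukocytes, 4 in endothelial cells and 6 in none. The leukocyte 10 included the cathepsins Ctsb, Ctsl and Ctss and the metalloproteinases Mmp8, Mmp9, Mmp12 and Mmp13; the fibroblast 14 included Mmp2, Mmp3 and Mmp14.

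Of the 13 fibroblast markers, all carried by fibroblasts, 4 were lower after infarction than in sham and 4 higher (Col1a1, Col1a2, Col3a1 and Mfap5). Scara5, a scavenger receptor of resting fibroblasts, was at 210.1, 836, 233 and 231 CPM after infarction and 785 to 1161 in sham, so that replicate 2 alone was within the sham range (-1.62 ± 0.47, adjusted p = 0.0088). Gsn, gelsolin, was at 9269, 16338, 7636 and 7729 CPM and 34132 to 39077 in sham, a fall with no overlap (-1.90 ± 0.33, adjusted p = 5.4e-05). C3, the central complement protein, had the same replicate apart, at 1422, 4771, 1207 and 1219 CPM. Of 22 complement genes 7 were enriched in fibroblasts, 7 in leukocytes, 3 in the cardiomyocyte fraction (1 under plain RPM) and 5 in none.

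Contractile genes of the myofibroblast were split. Of 16 tested, 6 were enriched in fibroblasts, Tpm1 and Palld in the cardiomyocyte fraction and 8 in none. Over all 16588 tested genes 6.74% were enriched in fibroblasts, 18.6% in the cardiomyocyte fraction and 10124 genes in none. The cardiomyocyte count was thus not above its share. Acta2, smooth muscle actin and the usual marker of myofibroblasts, was at 462, 241, 617 and 453 CPM in fibroblasts and 615, 659.6, 174 and 219.9 in the cardiomyocyte fraction, so the 2 overlapped and neither carried it by the rule. In sham hearts Acta2 was at 10.8 to 16.4 CPM in fibroblasts and 178 to 529 in the cardiomyocyte fraction, and of the 4 populations only fibroblasts passed the test for a rise (4.99 ± 0.35, adjusted p = 9.5e-12). The test of that difference between populations is given with the sham comparison. Of 11 mural cell markers, which Acta2 is among, 4 were enriched in fibroblasts, 1 in endothelial cells and 6 in none; pericytes and smooth muscle cells were not sorted apart.

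Fibroblasts also carried several signals to other cells. Il6, the cytokine interleukin-6, was at 73.8, 37.9, 49.8 and 133 CPM in fibroblasts, 7.19 to 10.3 in leukocytes, 1.75 to 13.8 in endothelial cells and 0.322 to 1.57 in the cardiomyocyte fraction, 2.89 ± 0.48 above leukocytes (adjusted p = 5.4e-05). In sham fibroblasts it was 0.343 to 0.969 CPM. Cxcl1, a neutrophil chemokine, was at 163, 127, 146 and 266 CPM in fibroblasts and 39.1 to 86.4 in leukocytes. Csf1, the macrophage growth factor, was at 245, 203, 187 and 295 CPM, not past the rule for a rise over the sham level (145 to 190.2), and Il33, an alarm cytokine held in the nucleus, at 100.4, 154, 160.3 and 191 CPM.

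Leukocytes carried chemokines, their receptors and the macrophage genes of the infarct. Of 12 monocyte and macrophage markers 11 were enriched in leukocytes, and of 22 genes of injury macrophages 15, with 7 in none and a median of 4.72 against -0.10 over all tested genes. Of 12 tested CC chemokines 10 were enriched in leukocytes (Ccl11 in fibroblasts, Ccl25 in none), and of 16 chemokine receptors 11. Among 23 tested cytokines 7 were enriched in leukocytes, 7 in fibroblasts, 1 in the cardiomyocyte fraction, 1 in endothelial cells and 7 in none. Without the 4 libraries numbered 2, fewer genes passed the filter, and the leukocyte counts became 8 of 10 CC chemokines, 8 of 13 chemokine receptors and 4 of 20 cytokines.

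Spp1 (ENSMUSG00000029304, chr5:104435118-104441050), osteopontin, a matrix and cytokine-like protein of macrophages in wounds, was at 4685, 2561, 5664 and 6000.5 CPM in leukocytes against 4.52 to 16.1 in sham leukocytes. It was present at 104, 53.0, 694 and 111 CPM in the cardiomyocyte fraction, 323, 69.2, 154 and 472 in fibroblasts and 108, 45.1, 259 and 84.4 in endothelial cells, in each of which no sham library passed 0.633 CPM. The leukocyte libraries were above all others, by 4.48 ± 0.70 against fibroblasts (adjusted p = 2.5e-05). Arg1, the enzyme arginase-1 of alternatively activated macrophages, was at 951, 815, 562 and 1226 CPM in leukocytes and 1.12 to 1.61 in sham. Its next highest level was in the cardiomyocyte fraction, at 35.2 to 71.2 CPM.

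Il1b, interleukin-1 beta, was at 876, 236, 158 and 1032 CPM in leukocytes, where replicates 1 and 4 were the high ones, and at most 13.6 CPM in any library of another population (6.24 ± 0.64, adjusted p = 1.5e-07). S100a8, a calcium-binding protein of neutrophils, was high in the same 2 libraries at 123, 43.5, 22.7 and 117 CPM, and Cxcr2, the neutrophil chemokine receptor, at 101, 36.2, 12.9 and 106 CPM. Ccr2, the receptor by which monocytes leave the marrow, did not follow that order and was at 806, 659, 693 and 648 CPM, all above the sham range of 106 to 233. The summed level of 12 neutrophil markers was 246 to 898 CPM in infarcted and 43.7 to 116 in sham leukocytes, and that of 12 macrophage markers 6002 to 7951 and 3662 to 7448. The 12 general leukocyte markers rose as well, with sums of 4734 to 6255 and 1626 to 3092 CPM, and 8 of the 12 passed the rule. Their part in the rises of other genes within leukocytes was not tested.

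Genes of resident macrophages were carried by leukocytes without a rise; of 14 tested against sham, 0 rose in leukocytes and 6 fell. Of 13 tested for enrichment, 10 were enriched in leukocytes, Igf1 in fibroblasts, and Cbr2 and Gas6 in none. Cd163, a haemoglobin scavenger receptor, was at 357, 618, 200.4 and 308 CPM against 332 to 749 in sham, and Mrc1, the mannose receptor, at 1902, 2204, 1377 and 1680.1 against 1415 to 2758, so both overlapped sham. Hmox1, which breaks down haem, was at 631, 627, 532 and 819 CPM, above the sham range of 45.6 to 102. Of 10 MHC class II genes 9 were enriched in leukocytes, such as Cd74, the invariant chain, at 798, 1175, 637 and 791 CPM and 1113 to 2144 in sham, a difference of -1.03 ± 0.32 (adjusted p = 0.0091).

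Markers of rarer leukocytes were at low levels. Of 6 tested markers of T and NK cells 3 were enriched in leukocytes, of 8 B cell markers 6, and of 8 dendritic cell markers 6. Without the 4 libraries numbered 2, fewer of these genes passed the filter of 1 CPM in at least 4 libraries, which leukocytes alone then could not meet, and the counts became 1 of 3, 1 of 3 and 1 of 4. The summed level of the T and NK list was 18.3 to 27.3 CPM in infarcted leukocytes and 28.9 to 78.7 in sham, and that of the B cell list 90.7 to 149 and 186 to 266. Ighm, the heavy chain of IgM, was at 91.1, 124, 73.2 and 64.3 CPM in infarcted leukocytes and 146 to 238 in sham.

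**Figure D2:**
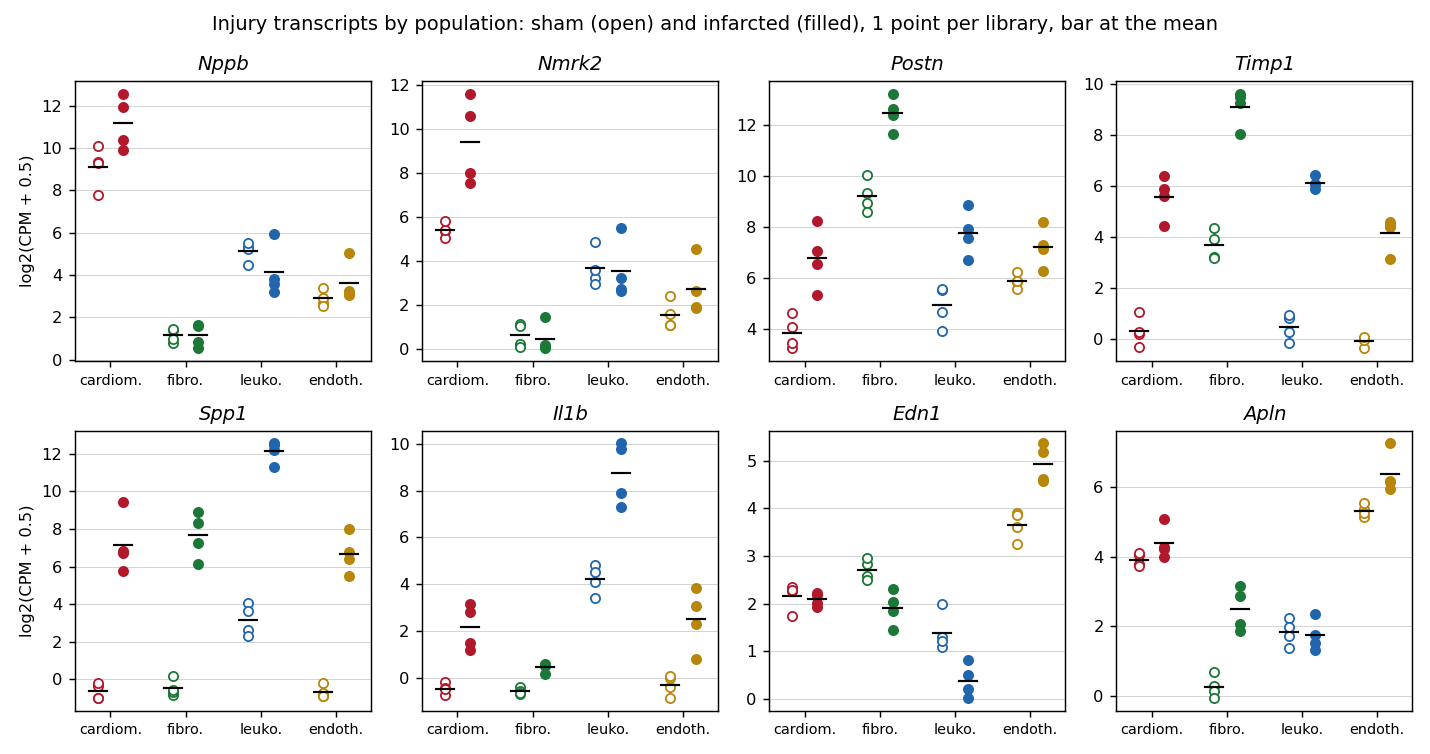
Log2(CPM + 0.5) of 8 injury transcripts in the 4 populations, 1 point per library (4 per group), open for sham and filled for infarcted adult hearts, with a bar at the mean. Nppb and Nmrk2 are highest in the cardiomyocyte fraction, Postn and Timp1 in fibroblasts, Spp1 and Il1b in leukocytes and Edn1 and Apln in endothelial cells; the filled Spp1 and Timp1 points lie above the open ones in all 4 populations.

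Endothelial cells carried receptors for growth factors and vessel genes, and few transcripts that rose. Of 32 tested growth factor receptors 14 were enriched in endothelial cells, 7 in fibroblasts, 2 in the cardiomyocyte fraction (0 under plain RPM), 1 in leukocytes and 8 in none, and of 23 genes of angiogenesis 14 in endothelial cells. The medians of these lists were 1.05 and 2.61, against -0.09 over all tested genes. Of 42 growth factors 13 were enriched in fibroblasts, 10 in endothelial cells, 8 in the cardiomyocyte fraction (6 under plain RPM), 1 in leukocytes and 10 in none. Over all tested genes the shares were 6.74% in fibroblasts, 6.21% in endothelial cells, 18.6% in the cardiomyocyte fraction and 7.44% in leukocytes. The count of 8 for the cardiomyocyte fraction was near its share.

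Edn1 (ENSMUSG00000021367, chr13:42301270-42307989), the vasoconstrictor peptide endothelin-1, was at 35.8, 23.5, 23.9 and 40.7 CPM in endothelial cells, above its sham range of 8.99 to 14.5. It was 3.30 to 4.19 in the cardiomyocyte fraction, 2.23 to 4.42 in fibroblasts and 0.511 to 1.27 in leukocytes, and the lowest difference was 2.85 ± 0.23 against the cardiomyocyte fraction (adjusted p = 6.5e-09). Its rise over sham was 1.28 ± 0.23 (adjusted p = 0.00052). Apln, the peptide apelin of sprouting vessels, was at 151, 72.0, 69.6 and 60.7 CPM, where replicate 1 was the high one, and 34.7 to 45.7 in sham. Ackr1, a chemokine-binding receptor of venules, was at 6.77, 5.67, 4.47 and 8.03 CPM against 0.654 to 1.06 in sham, low in level and with no overlap.

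The genes that define the endothelium differed less from sham. Vwf, von Willebrand factor, was at 1943, 1637, 2259 and 3559 CPM in endothelial cells (1325 to 1898 in sham), Fabp4, a fatty acid carrier, at 2719.8, 2451, 2248 and 2034 (2577 to 2825), and Kdr, the receptor VEGFR2, at 1579, 2402, 1714 and 1345 (2345 to 2925). None of the 3 differed from sham past the threshold. Pdgfb, which recruits pericytes, was the most even at 222, 211, 190.1 and 210.5 CPM. Nrg1, the neuregulin that acts on cardiomyocytes, was at 26.5, 8.25, 25.8 and 48.0 CPM against 4.78 to 9.08 in sham, with replicate 2 inside the sham range. Of 18 adhesion molecules 7 were enriched in leukocytes, 6 in endothelial cells and 5 in none; Vcam1, which binds leukocytes, was at 175 to 244 CPM in fibroblasts and 117 to 188 in endothelial cells and so was carried by neither.

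**Figure D3:**
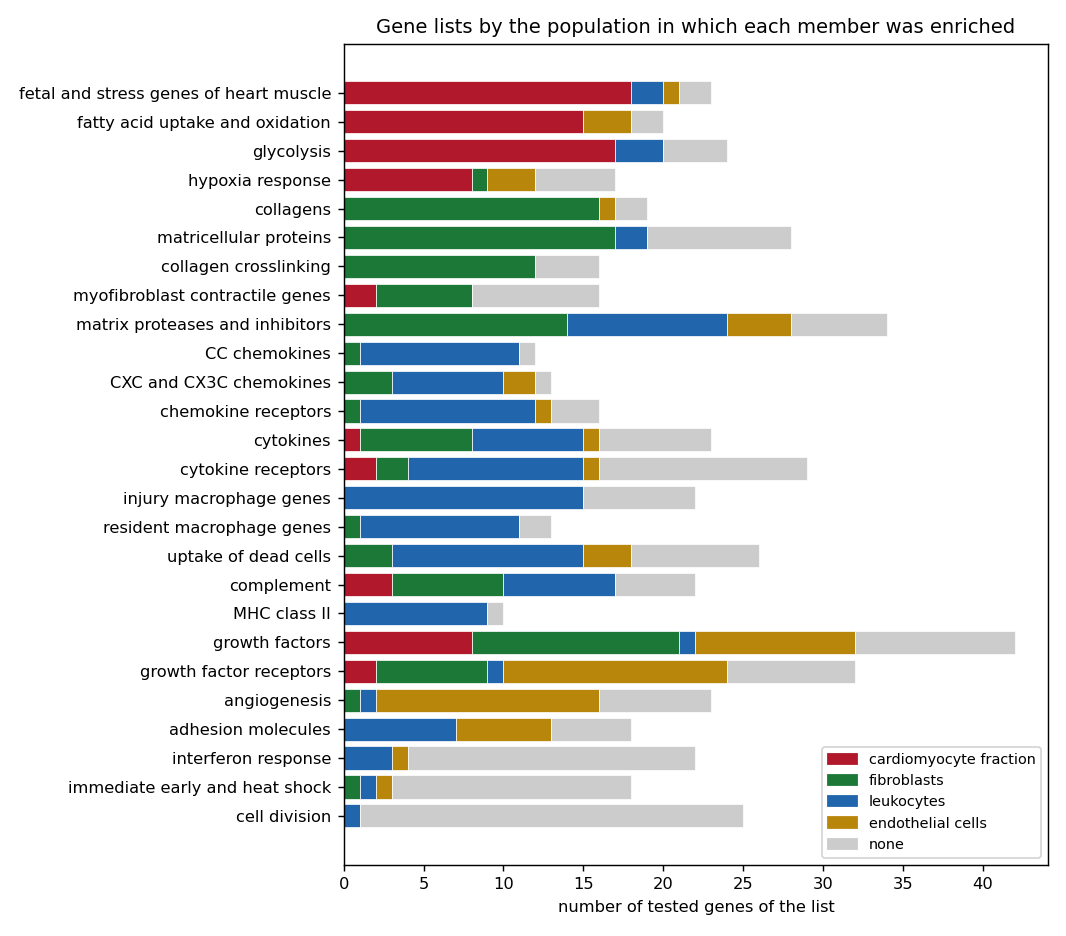
Number of tested genes in each of 26 gene lists, coloured by the population in which each gene was enriched (grey for none). The bars of the cardiomyocyte, matrix, macrophage and angiogenesis lists are mostly 1 colour, while those of cell division, immediate early and interferon genes are mostly grey.

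Cell division genes were not carried by 1 population. Of 25 cell division genes only E2f1 was enriched, in leukocytes, and 24 were enriched in none, as were 10124 of all 16588 tested genes. Mki67, the marker of cycling cells, was at 359, 247, 428 and 317 CPM in leukocytes, 330.2, 121, 421 and 288 in fibroblasts, 130.0, 61.9, 175 and 88.0 in endothelial cells and 15.5, 7.09, 62.0 and 8.68 in the cardiomyocyte fraction, where replicate 3 stood apart. The leukocyte and fibroblast libraries overlapped. Of the 25 genes, 21 rose over sham in the cardiomyocyte fraction, 24 in leukocytes, 25 in fibroblasts and 21 in endothelial cells, and 19 in the cardiomyocyte fraction without its replicate 3. Over all genes tested, 5.49%, 8.57%, 6.45% and 2.94% rose in these populations. Leukocyte markers moved with these genes: 11 of 12 rose in the cardiomyocyte fraction (sum 113 to 359 CPM against 21.1 to 81.8 in sham) and 11 of 12 in endothelial cells (78.7 to 183 against 31.0 to 44.1), and their part was not tested. Sham fibroblasts held 2.39 to 23.8 CPM of Mki67 and sham leukocytes 71.2 to 158.

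Immediate early and heat shock genes, which cells switch on within minutes of a stimulus, were likewise mostly carried by none. Of 18, 1 each was enriched in fibroblasts (Egr3), leukocytes (Atf3) and endothelial cells (Fosl1) and 15 in none; Fos was at 376 to 1241 CPM in leukocytes, 284 to 799 in fibroblasts, 66.0 to 329 in endothelial cells and 52.7 to 245 in the cardiomyocyte fraction. Interferon response genes were enriched in leukocytes for 3 of 22 (Mx1, Oas3, Oas1a), in endothelial cells for 1 (Ifi44) and in none for 18. Fn1, fibronectin, was enriched in none because 2 populations held much of it, 5496, 4679, 3803 and 4049 CPM in leukocytes and 2676, 2644, 5040.2 and 2880.2 in fibroblasts, where sham leukocytes held 48.9 to 97.6.

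Ligands and receptors were read off the same calls for 28 pairs of RNAs; they say where the RNA was, not whether the proteins met. Of the 28 ligands 8 were enriched in fibroblasts, 6 in endothelial cells, 5 in leukocytes, 2 in the cardiomyocyte fraction and 5 in none, and 2 (Csf3 and Il11) were too low to test. Of the 25 receptors 9 were enriched in leukocytes, 4 each in fibroblasts and endothelial cells, 2 in the cardiomyocyte fraction and 6 in none. In 17 pairs both partners were enriched, in different populations in 12 and in the same one in 5.

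The 12 pairs across populations joined each population to another. Fibroblasts carried Csf1, Il34, Il6, Il33 and Cxcl1, whose receptors Csf1r, Il6ra, Il1rl1 and Cxcr2 were carried by leukocytes, and leukocytes carried Il1b, whose receptor Il1r1 was carried by fibroblasts (324, 301, 281 and 345 CPM; 109 to 143 in endothelial cells). Endothelial cells carried Cxcl12, whose receptor Cxcr4 was in leukocytes (138, 69.8, 109.6 and 225 CPM against 19.4 to 35.9 in sham), and Pdgfb, whose receptor Pdgfrb was in fibroblasts. The cardiomyocyte fraction carried Vegfa and Pdgfa, with the receptors Kdr in endothelial cells and Pdgfra in fibroblasts, and it carried Erbb4 (12.9, 17.3, 33.2 and 20.6 CPM), the receptor for the endothelial Nrg1. These cardiomyocyte calls are those of the deposited scaling. Under plain RPM the cardiomyocyte fraction carried 6 of the 42 growth factors in place of 8. It then carried 0 of the 32 growth factor receptors, so not Erbb4. Fibroblasts carried Pgf, with its receptor Flt1 in endothelial cells.

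The 5 pairs within a population were Ccl2 and Ccl7 with Ccr2 and Spp1 with Cd44 in leukocytes, and Angpt2 with Tek and Apln with Aplnr in endothelial cells. Ccl2, the main monocyte chemokine, was the least separate of these, at 317, 229, 169.6 and 441 CPM in leukocytes and 228, 59.4, 60.6 and 168 in fibroblasts. Its libraries overlapped, and the difference was 1.32 ± 0.48 (adjusted p = 0.028). Hgf, a growth factor whose receptor is Met, was enriched in none because fibroblasts (30.8 to 59.9 CPM) and leukocytes (20.2 to 41.9) held like amounts.

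Where the genes that rose after infarction were carried was counted next. A gene was called raised in a population at a log2 difference of at least 1 and an adjusted p under 0.05 between its 4 infarcted and 4 sham libraries (17495 genes tested over 32 libraries). This held for 960 genes in the cardiomyocyte fraction (5.49%), 1500 in leukocytes (8.57%), 1129 in fibroblasts (6.45%) and 514 in endothelial cells (2.94%). Fewer genes fell in the cardiomyocyte fraction (109, 0.623%), fibroblasts (754, 4.31%) and endothelial cells (143, 0.817%), and more in leukocytes (2146, 12.3%). As the infarcted libraries enter both the rise and the enrichment, the counts that follow are a description with no test.

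Of the 2346 genes raised in at least 1 population, 656 were carried by leukocytes (28.0%), 311 by fibroblasts (13.3%), 121 by the cardiomyocyte fraction (5.16%) and 99 by endothelial cells (4.22%). Another 1149 (49.0%) were carried by none, and 10 were not among the genes tested for enrichment. Of all 16588 genes tested for enrichment, leukocytes carried 7.44%, fibroblasts 6.74%, the cardiomyocyte fraction 18.6% and endothelial cells 6.21%, and 10124 were carried by none. A gene was often raised in a population that did not carry it. Of the 960 genes raised in the cardiomyocyte fraction 53 were carried there (5.52%), while 351 were carried by leukocytes (36.6%), 167 by fibroblasts (17.4%) and 19 by endothelial cells. Of the 514 raised in endothelial cells 29 were carried there (5.64%, near the 6.21% of all tested genes) and 184 by leukocytes (35.8%). Leukocytes carried 506 of the 1500 raised in them (33.7%) and fibroblasts 188 of the 1129 raised in them (16.7%). Another 120 of those 1129 were carried by leukocytes (10.6%).

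Markers of the carrying cells moved with these genes. The summed level of the 12 leukocyte markers was 113 to 359 CPM in the infarcted and 21.1 to 81.8 in the sham cardiomyocyte fraction, and 11 of the 12 rose there. In endothelial cells it was 78.7 to 183 and 31.0 to 44.1, and 11 of 12 rose. In fibroblasts it was 27.4 to 40.5 and 15.0 to 23.5, and 3 of 12 rose. In leukocytes themselves it was 4734 to 6255 and 1626 to 3092, and 8 of 12 rose. No leukocyte marker was at 0 in all 4 libraries of any of these groups. The 351 leukocyte genes raised in the cardiomyocyte fraction lay at a median of -4.19 (quartiles -4.67 and -3.61) on the log2 scale relative to leukocytes, and the 12 leukocyte markers at -4.40. The 184 raised in endothelial cells lay at -5.38, with the markers at -5.71. In fibroblasts the 120 lay at -2.43, with the markers at -7.79. The genes of each set were chosen for a rise in the libraries measured here and the markers were not. The gap between their medians is therefore set in part by that choice. The part of leukocyte RNA in these rises was not tested.

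Genes carried by fibroblasts were read in the same way. The 173 genes raised in leukocytes and carried by fibroblasts lay at -2.91 relative to fibroblasts, with the 13 fibroblast markers at -4.23; the marker sum in leukocytes was 2772 to 7824 CPM after infarction and 1058 to 3159 in sham. The 167 raised in the cardiomyocyte fraction lay at -3.69, with the markers at -4.94 and the sum at 1853 to 3655 against 692 to 2103. The 52 raised in endothelial cells lay at -3.80, with the markers at -4.78 and the sum at 1581 to 3335 against 1508 to 2088. The 72 genes raised in fibroblasts and carried by the cardiomyocyte fraction lay at -2.29, with the 14 cardiomyocyte markers at -9.21. Whether fibroblast RNA had a part in these rises was not tested.

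**Figure D4:**
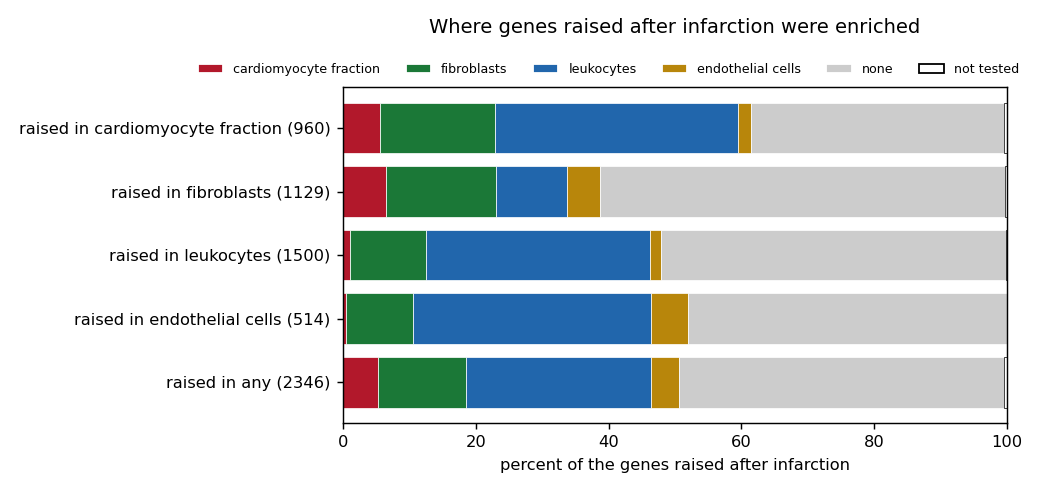
Percent of the genes raised after infarction in each population, and in any, that were enriched in each population of the infarcted heart (number of genes in brackets). Leukocytes carried 36.6% of the 960 genes raised in the cardiomyocyte fraction and 35.8% of the 514 raised in endothelial cells. The grey part carried by none was 61.0% in fibroblasts, about the share over all genes tested for enrichment (10124 of 16588).

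Some rises were shared. Of the 2346 genes 1311 were raised in 1 population, 535 in 2, 278 in 3 and 222 in all 4, and 144 of the 222 were carried by none, 44 by leukocytes, 32 by fibroblasts and 1 each by the cardiomyocyte fraction and endothelial cells. Over all 16588 genes tested for enrichment, 10124 were carried by none, 7.44% by leukocytes, 6.74% by fibroblasts, 18.6% by the cardiomyocyte fraction and 6.21% by endothelial cells. Spp1, Tnc, Timp1 and Saa3 were among the 222. By list, 20 of 22 injury macrophage genes rose in leukocytes and 18 in the cardiomyocyte fraction, 17 in endothelial cells and 10 in fibroblasts. Collagen genes rose for 10 of 19 in fibroblasts and 16 in the cardiomyocyte fraction, 10 in leukocytes and 7 in endothelial cells, though 16 of the 19 were carried by fibroblasts. Of 23 fetal and stress genes of heart muscle 9 rose in the cardiomyocyte fraction (12 under plain RPM and 6 under quantile normalization), and of the 23, 7 fell in fibroblasts and 12 in leukocytes. Over all genes 4.31% fell in fibroblasts and 12.3% in leukocytes. Cardiomyocyte markers fell there too, 13 of 14 in fibroblasts and 14 of 14 in leukocytes, and the part of cardiomyocyte RNA was not tested.

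Whether a population differed from the other 3 by a different amount in infarcted and sham hearts was tested as the difference of those 2 contrasts (population minus the mean of the other 3, infarcted minus sham). At an adjusted p under 0.05, 1848 genes were higher and 659 lower for the cardiomyocyte fraction (10.6% and 3.77%), 1453 higher and 1809 lower for fibroblasts (8.31% and 10.3%), 1632 and 3214 for leukocytes (9.33% and 18.4%) and 59 and 137 for endothelial cells (0.337% and 0.783%). The split for the cardiomyocyte fraction turned on the scaling, with 1434 higher and 970 lower under median-of-ratios scaling, 1288 and 1297 under quantile normalization and 2159 and 396 under plain RPM. For leukocytes it was 2360 and 2868, 2902 and 2970, and 2280 and 2423, for fibroblasts 1000 and 2093 under plain RPM, and for endothelial cells 40 and 179.

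Cardiomyocyte RNA moved with these contrasts. In sham leukocytes the 14 cardiomyocyte markers summed to 81229 to 223985 CPM, where the sham cardiomyocyte fraction held 198003 to 238238, and after infarction they summed to 5825 to 20425; all 14 fell in leukocytes. In fibroblasts the sums were 3361 to 6688 and 599 to 1505, and 13 fell, and in endothelial cells 10014 to 22868 and 4243 to 9352, and 7 fell. Endothelial markers fell in leukocytes too, 12 of 14, with sums of 528 to 767 CPM in sham and 197 to 301 after infarction. No cardiomyocyte marker fell in the cardiomyocyte fraction, yet its contrast was higher after infarction for 13 of 14. The part of the RNA of other cells in the contrasts of other genes was not tested. Of 23 fetal and stress genes of heart muscle, 17 had a higher cardiomyocyte contrast and 16 a lower leukocyte contrast.

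Among genes of at least 5 CPM whose infarcted and sham libraries did not overlap, the largest differences were these. For the cardiomyocyte fraction Cxcr6, a chemokine receptor, differed by 4.08 ± 0.41 (adjusted p = 4.5e-07), from 0.358 to 0.981 CPM in sham to 15.0, 2.74, 20.9 and 18.9, while leukocytes held 4.84 to 8.44, above cardiomyocyte replicate 2 and below the other 3. Nmrk2 differed by 3.73 ± 0.79 (adjusted p = 0.0032) and Sprr1a by 3.68 ± 0.71 (adjusted p = 0.0017). The other way, Spc24, a kinetochore protein, differed by -3.04 ± 0.35 for the cardiomyocyte fraction, where it was 4.85 to 6.93 CPM and at least 7.22 in sham, while it rose in the 3 other populations.

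For fibroblasts the largest were Mmrn1, Acta2, Wisp1 and Cthrc1. Mmrn1, an adhesive protein known from platelets and lymphatic vessels, differed by 5.51 ± 0.50 (adjusted p = 1.2e-08), at 31.4, 42.1, 22.7 and 104 CPM against 0.348 to 1.84 in sham, and its leukocyte contrast went the other way (-3.35; 19.8, 31.8, 23.5 and 13.5 CPM against 40.1 to 159). Acta2 differed by 4.99 ± 0.41 (adjusted p = 1.2e-09), Wisp1, a matricellular protein of Wnt signalling, by 4.93 ± 0.48 and Cthrc1 by 4.27 ± 0.42. Of 16 myofibroblast genes 11 had a higher and 0 a lower fibroblast contrast, and of 25 cell division genes 23 and 0. The lymphatic marker list moved with Mmrn1 in both populations. In fibroblasts 4 of its 5 genes rose, with a sum of 55.7 to 73.4 CPM in sham and 113 to 295 after infarction. In leukocytes 4 of the 5 fell and 1 rose, with a sum of 343 to 781 CPM in sham and 153 to 281 after infarction. The part of lymphatic cells in these differences was not tested.

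For leukocytes Arg1 (5.03 ± 0.28, adjusted p = 4.5e-13), Chil3 (4.73 ± 0.58), F7 (4.66 ± 0.31) and F10 (4.37 ± 0.31) led. Chil3, a chitinase-like protein of monocytes, was at 227, 95.2, 59.9 and 692 CPM against 0.388 to 2.08. F7 and F10 encode the clotting factors VII and X, which meet at the start of coagulation, and stood at 41.7, 46.6, 61.5 and 47.3 and 90.7, 76.9, 48.6 and 101 CPM against 0.336 to 0.511 and 0.503 to 1.77. Fn1 rose in all 4 populations but most in leukocytes, so its contrast differed by 3.52 ± 0.30 there and by -2.86 in endothelial cells. Pla2g2d, a secreted phospholipase, fell to 2.31, 7.67, 2.74 and 2.28 CPM from 31.7 to 61.0 (-3.09). Of 22 injury macrophage genes 13 had a higher and 0 a lower leukocyte contrast, and of 14 resident macrophage genes 0 and 11.

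The endothelial contrast changed least. Sh2d5, an adaptor protein, differed by 2.67 ± 0.44 (adjusted p = 0.0012), at 21.6, 3.58, 14.1 and 18.8 CPM against 0.0478 to 0.352 in sham, Disp2, a membrane protein of the Dispatched family, by 2.61 ± 0.32, and Edn1 by 1.91 ± 0.26 (adjusted p = 9.6e-05). The count of 196 genes was the least settled of the 4, at 77 without the libraries with over 4% of 18S reads, 109 without endothelial sham replicate 4, 121 without endothelial sham replicate 3, 130 without infarcted endothelial replicate 4, 349 without infarcted fibroblast replicate 2, 417 without cardiomyocyte replicate 3 and 396 without the 4 infarcted libraries numbered 2. The libraries over 4% in 18S reads were infarcted leukocyte replicate 1, infarcted endothelial replicate 1, sham cardiomyocyte replicate 1 (7.14%) and sham fibroblast replicate 1 (4.45%). The cardiomyocyte count of 2507 was 1623 without cardiomyocyte sham replicate 1, 1657 without infarcted replicate 4 and 4481 without infarcted replicate 3, and the fibroblast count of 3262 was 2114 without infarcted fibroblast replicate 4.

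**Figure D5:**
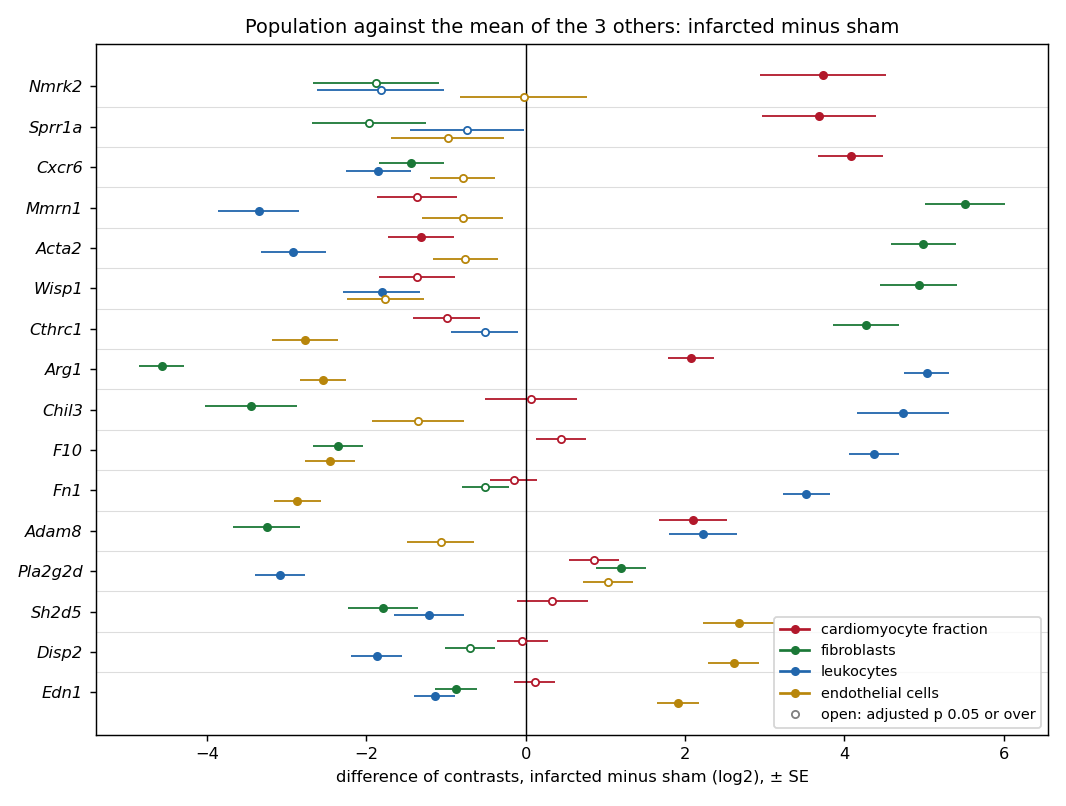
Difference of contrasts (a population minus the mean of the other 3, infarcted minus sham, log2, with its SE) for 16 genes, 1 point per population, filled where the adjusted p was under 0.05. Nmrk2, Sprr1a and Cxcr6 lie to the right for the cardiomyocyte fraction, Mmrn1, Acta2, Wisp1 and Cthrc1 for fibroblasts, Arg1, Chil3, F10 and Fn1 for leukocytes and Sh2d5, Disp2 and Edn1 for endothelial cells.

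The same contrast was set against hearts infarcted at P1, where age cannot be told apart from the isolation, since pooled neonatal ventricles were minced and stirred in enzyme, or from sex, which the labels give for adults only. It differed at an adjusted p under 0.05 for 12441 of 17493 genes in the cardiomyocyte fraction (71.1%), 6308 in endothelial cells (36.1%), 6191 in fibroblasts (35.4%) and 5516 in leukocytes (31.5%). The direction of these calls followed the scaling: 5858 were higher in adults and 6583 lower in the cardiomyocyte fraction as deposited, and 2017 and 11448 under plain RPM. Of the injury transcripts followed above, the contrast of Nppb for the cardiomyocyte fraction was 2.04 ± 0.58 (adjusted p = 0.0024), that of Postn for fibroblasts 1.49 ± 0.54 (0.032), that of Spp1 for leukocytes -1.20 ± 0.80 (0.26) and that of Edn1 for endothelial cells 1.09 ± 0.27 (0.0026), each as adult minus neonatal.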

How the data were processed

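RNA was sequenced from 64 libraries, of which 48 (infarcted and sham at P56, infarcted at P1) enter here. Per the labels' protocols, ribosomal RNA was depleted and stranded total RNA libraries were read from 1 end on an Illumina sequencer. STAR, HTSeq, Trimmomatic and edgeR (versions not given in the sources used here) are the tools listed in the submitters' processing notes, with mm10, GRCh38 and GRCm38 as builds whose roles are not stated. The authors deposited 1 table of CPM for 20637 genes, in which each value is a signal proportional to reads, scaled by an effective library size that differs from the plain total; whole reads were recovered from its steps (100% of values under 10000 reads within 0.01 of a whole number). The gene length in bases, a count of bases deposited by the authors, and their coordinates were taken from the same table, and 20541 of the 20637 gene identifiers were found in GENCODE M21, all on the same chromosome.

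Groups came from the labels. Values were analysed as log2(CPM + 0.5) with limma 3.58.1 (trend, R 4.3.3) over genes with at least 1 CPM in at least 4 libraries of a fit, with Benjamini-Hochberg adjustment over all genes tested and a threshold of 0.05; these are p-values of a model across all genes. Enrichment was fitted on 16 libraries, the sham and age comparisons on 32 each. Alternatives were other scalings, filters, pseudocounts and folds, edgeR 4.0.16 and DESeq2 1.42.0 on the recovered reads, a replicate block, and leaving out libraries; those without the libraries numbered 2 or high in 18S reads were chosen after the data were seen. Scripts were tested on simulated data. Figures were drawn with matplotlib 3.10.9.

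The populations, gene lists and ligand and receptor pairs were chosen with earlier results of these data known. Named genes were, per population, the 8 enriched genes of largest lowest difference and the 5 of highest level, up to 4 enriched members per list and population and 2 enriched in none, all ligands and receptors, and the 4 largest differences from sham in each direction and the 4 largest rises among genes of at least 5 CPM with no overlap; fewer were printed. Promoter windows were matched for 66.3% of tested genes (11002 of 16588), too few to compare sets, so motif shares are given over all windows only.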

Additional observations from a re-analysis of the deposited data

Results flagged for a closer look

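In 88 groups of 4 libraries that were examined, 8 had 1 library far from the other 3; chance flags about 1 in 20 groups. Acta1 in the cardiomyocyte fraction was 5836 CPM in replicate 4 and 3745 to 4046 in the others. In fibroblasts replicate 2 stood apart for Scara5, at 836 CPM against 210.1 to 233, and for C3, at 4771 against 1207 to 1422. In leukocytes replicate 2 stood apart for Pla2g2d, at 7.67 CPM against 2.28 to 2.74, and in endothelial cells replicate 1 for Apln, at 151 against 60.7 to 72.0. The share of reads from 18S ribosomal RNA was apart in replicate 1 of fibroblasts (0.125% against 0.0240 to 0.0412%), leukocytes (7.07% against 0.0922 to 0.190%) and endothelial cells (4.56% against 0.0349 to 0.0990%).

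The contrast of a population with the other 3 differed between infarcted and sham hearts, by the test of that difference, for 22 listed gene and population pairs. The pairs were chosen with these differences known, so their number is no separate support. For the cardiomyocyte fraction these were Cxcr6 (4.08), Nmrk2 (3.73), Sprr1a (3.68) and Spc24 (-3.04), on the log2 scale. For fibroblasts they were Mmrn1 (5.51), Acta2 (4.99), Wisp1 (4.93), Cthrc1 (4.27), Adam8 (-3.25) and Saa3 (-2.83). Adam8 and Saa3 rose over sham in fibroblasts (1.03 and 3.15), but less than in the mean of the other populations. For leukocytes they were Arg1 (5.03), Chil3 (4.73), F7 (4.66), F10 (4.37), Fn1 (3.52), Mmrn1 (-3.35) and Pla2g2d (-3.09). For endothelial cells they were Sh2d5 (2.67), Disp2 (2.61), Edn1 (1.91), Fn1 (-2.86) and Arg1 (-2.54). Fn1 and Arg1 rose over sham in endothelial cells too (1.23 and 3.17), by less than the mean rise of the other populations.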

How the results depend on the processing

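The number of enriched genes kept within 1.5 times of 3082, 1118, 1234 and 1030 (cardiomyocyte fraction, fibroblasts, leukocytes, endothelial cells) under edgeR (3135, 1174, 1278 and 1140), DESeq2 (3426, 1114, 1314 and 1139) and a replicate block (3085, 1122, 1238 and 1031). Plain RPM gave 1418 for the cardiomyocyte fraction. Any fold above 1 gave 1729 for fibroblasts and 1900 for endothelial cells, and at least 4-fold 1562, 559, 725 and 442. Against the mean of the other 3 populations, fibroblasts had 2527, leukocytes 2337 and endothelial cells 2715. Leaving out 1 library gave 2770 to 3089, 935 to 1125, 953 to 1238 and 874 to 1052. Without the 4 libraries numbered 2 the numbers were 2721, 914, 925 and 873, and without the 2 libraries with over 4% of 18S reads 3073, 1106, 992 and 935.

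Genes raised over sham (960, 1129, 1500 and 514) numbered 2135, 2959, 4161 and 819 at any fold, 2361 for leukocytes under plain RPM, and 810 to 1255, 1023 to 1318, 1309 to 1632 and 376 to 660 without 1 library, and 1256, 1316, 1537 and 677 without the libraries numbered 2. Leukocytes carried 23.7 to 29.1% of the genes raised in any population under the other settings (28.0% as reported), and 14.9% at any fold. Only the raised genes were called anew under each setting, and the carrying populations were kept as reported.

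Genes with a changed contrast against sham (2507, 3262, 4846 and 196) numbered 1073, 1296 and 2456 for the first 3 populations at an absolute difference of at least 1 (535 higher and 1921 lower in leukocytes). For the cardiomyocyte fraction the number was 1246 without the libraries over 4% in 18S reads, sham cardiomyocyte and sham fibroblast replicate 1 among them. For endothelial cells it was 351 under quantile normalization, 470 under DESeq2, 396 (166 higher, 230 lower) without the libraries numbered 2 and 77 without those with over 4% of 18S reads. Without 1 library the numbers were 1623 to 4481, 2114 to 4223, 3735 to 5924 and 109 to 417; the fibroblast extremes were without infarcted fibroblast replicate 4 and infarcted cardiomyocyte replicate 3. Against P1 they were 11756 to 12903, 5378 to 8203, 4458 to 7327 and 4921 to 8249.

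Plain RPM moved the median of all genes in the sham comparison from 0.11, -0.04, -0.02 and 0.02 to 0.21, -0.17, 0.14 and -0.13, and against P1 from -0.14, 0.01, -0.09 and 0.05 to -0.88, 0.42, 0.14 and 0.26. The split against P1, higher and lower, was 2956 and 3235 in fibroblasts, 2032 and 3484 in leukocytes and 3301 and 3007 in endothelial cells, and 7232 and 988, 3034 and 1536, and 4630 and 1141 under plain RPM.

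The labels give groups the same replicate numbers but do not say what they share. Of 24 same-number pairs of libraries 22 had correlated deviations over 0.1 (median 0.290, lowest 0.078) and in 48 of 48 checks (each of the 16 libraries against each of the other 3 populations) the best match had the same number, which is a hint from the data and not the design. With the replicate block the changed contrasts were 2089 higher and 707 lower, 1551 and 1990, 1715 and 3306, and 107 and 211 (318 in endothelial cells), or 655 in endothelial cells with the block set within each surgery, and genes raised were 973, 1137, 1502 and 552.

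Of the values of single genes, 11723 kept their direction and call, 159 lost the call and 2 turned: under quantile normalization the enrichment of Rn7sk in the cardiomyocyte fraction was -0.31 (1.27 as reported) and that of Pkm -0.22 (1.21 as reported). The cause of these changes was not tested. Depth limits low genes, as 3 reads were worth up to 0.260 CPM in the infarcted P56 libraries and 0.372 CPM in sham cardiomyocyte replicate 1.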

Other observations

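Markers of cells that the sort did not separate fell into several of the 4 populations. All 6 tested Schwann cell markers were enriched in fibroblasts, with Cdh19, a cadherin of glia along nerves, at 26.7, 28.7, 31.6 and 22.1 CPM in the 4 fibroblast replicates and at most 4.55 CPM elsewhere. Among dendritic cell markers Clec9a, a receptor for dead cells, and Zbtb46, a transcription factor that endothelial cells also express, were enriched in endothelial cells, Clec9a at 32.3, 44.7, 38.4 and 58.5 CPM against 2.77 to 5.60 in leukocytes. Neither differed from sham in endothelial cells past the threshold. The epicardial transcription factor Wt1 was likewise highest in endothelial cells, at 54.1, 43.3, 43.9 and 54.4 CPM, while the epicardial surface proteins Msln and Upk1b were highest in leukocytes. Msln was at 9.14 to 31.0 CPM there and overlapped fibroblasts at 5.41 to 12.8. The remaining 3 of the 6 tested epicardial markers (Upk3b, Krt19 and Lrrn4) were enriched in none. Against sham, fibroblasts had 5 of the 6 raised, the cardiomyocyte fraction 4, endothelial cells 4 and leukocytes 2. Globin transcripts from red cells were enriched in endothelial cells, Hbb-bs at 42.8, 42.2, 63.8 and 70.5 CPM.

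A few markers were highest in a population other than the one their list names. Trac, the constant part of the T cell receptor alpha chain, was at 2.51, 0.767, 2.96 and 2.61 CPM in fibroblasts and 0.839 to 1.25 in leukocytes, low values that overlapped; it rose over sham in fibroblasts (1.61 on the log2 scale) and its fibroblast contrast differed from sham by 1.52. The T and NK cell list summed to 3.11 to 7.19 CPM in these fibroblasts, with 3 of its 13 genes at 0 in all 4 libraries. The B cell kinase Blk was at 19.3, 13.2, 13.6 and 13.3 CPM in the cardiomyocyte fraction and 2.66 to 6.65 in leukocytes. Prox1, which marks lymphatic vessels and is also expressed by heart muscle, was at 63.9, 73.1, 77.2 and 73.3 CPM in the cardiomyocyte fraction. Reln, another lymphatic marker, was at 46.0, 53.7, 29.6 and 103 CPM in fibroblasts, with replicate 4 highest, as it was for Mmrn1. The part of other cells in these values was not tested.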
